A study of Mus musculus with 12 samples.

Results

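The combined response of mouse bone marrow mesenchymal stromal cells (MSCs) to A1 and ovalbumin (OVA) was read from the 4 samples labelled A1-OVA and the 4 untreated samples labelled Negative, 8 of the 12 samples of the series, and it was described across all genes. All cells were primary MSCs of wild-type (WT) C57BL/6 mice, grown in AMEM with serum and antibiotics. A1 + OVA-treated cells received 50 µM A1 and 1 mg/mL OVA, the albumin of chicken egg white and a widely used model antigen, for 6 h. Untreated cells received neither agent, and their incubation time is not given. The other 4 samples received 50 µM A1 alone for 6 h. They were fitted together with these 8, and their values are given only where A1 + OVA is compared with A1. A1 is a variant of Accum, in which the bile acid cholic acid is linked to a nuclear localization signal, here that of the RNA-binding protein hnRNPA1. No group received OVA alone, so that against untreated cells the effects of A1 and of OVA cannot be told apart. The label of the A1 + OVA medium also names insulin, without an amount and only for this group.

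MSCs of the bone marrow are stromal cells that can form bone, cartilage and fat, and they supply blood-forming cells with signals such as the KIT ligand Kitl, the chemokine Cxcl12 and the interleukin Il7. Adherent stromal cells carry actin stress fibres that end at integrins, and the actin state sets the activity of the transcription factors SRF, through its MRTF partners, and YAP/TAZ. Sterol levels in the ER membrane set the activity of SREBP, which drives the genes of cholesterol and fatty acid synthesis, and unfolded proteins in the ER activate ATF6, IRE1 and PERK.

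Expression is given in CPM, the counts of a gene relative to the TMM-normalized library size, for replicates 1 to 4 in this order. Log2 fold changes of A1 + OVA-treated against untreated MSCs and adjusted p-values come from edgeR's quasi-likelihood test of 11314 protein-coding genes. Standard errors (SE) were derived from that test, as the size of the log2 fold change divided by the square root of the F statistic. A gene is called higher or lower at an adjusted p-value under 0.05, and it is a differentially expressed gene (DEG) if its log2 fold change is also at least 0.5 in size. Library totals were 15644991 to 16881995 counts in untreated and 14359973 to 16674294 in A1 + OVA-treated samples. The MSC markers Cd44, Pdgfra, Vcam1, Ly6a and Itgb1 were detected in every sample, whereas Thy1 did not pass the filter on low counts and Nt5e had at most 14 counts in a sample. Of 25 hematopoietic markers, 16 had at most 3 counts in every untreated sample and 8 had none, and the leukocyte antigen Ptprc and the endothelial antigen Pecam1 had at most 4 counts in any sample. The summed level of these 25 genes was 12.3 to 13.2 CPM in untreated and 13.6 to 16.0 CPM in A1 + OVA-treated samples, that of 12 endothelial markers, 6 of them at 3 counts or fewer, was 16.3 to 19.6 and 12.3 to 13.4 CPM, and the part of these cells in the results was not tested. Within the A1 + OVA group, replicates 1 and 2 and replicates 3 and 4 were the closest pairs, with 2.50 and 2.65 times the variance of counting, against 5.21 to 6.07 times for the other pairs. In the untreated group this was 1.97 times for replicates 3 and 4 and 3.95 to 7.17 times for the other pairs, with replicates 1 and 2 the furthest apart. The labels do not say whether the replicates came from separate animals or cultures, so that p-values measure the spread between these samples only.

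A1 + OVA changed the expression of 6518 genes, most of those tested. At an adjusted p-value under 0.05, 3358 genes (29.7% of 11314) were higher and 3160 (27.9%) were lower than in untreated MSCs. Of these, 1009 (8.92%) were upregulated DEGs and 995 (8.79%) were downregulated DEGs. Counts of called members in the gene lists below are to be read against these shares. Most changes were small, with a median size of 0.33 on the log2 scale among the called genes, while 302 genes rose and 288 fell by at least 1 on that scale. Large increases outnumbered large decreases, with 76 against 36 genes past 2 and 19 against 7 past 3. All 4 A1 + OVA-treated samples lay above all 4 untreated samples for 2876 of the 11314 tested genes and below them for 2711. The median over all tested genes was 0.0036, with quartiles of -0.20 and 0.21. On a scale of counts per kb of exon, divided by their sum over protein-coding genes, the upregulated DEGs held 7.57 ± 0.086% of the protein-coding signal of untreated cells (SD, n = 4) and 13.2 ± 0.16% after treatment. The downregulated DEGs went from 4.85 ± 0.069% to 2.49 ± 0.044%. These shares describe genes picked by the same contrast and carry no test. On the first principal component of all 12 samples, with 69.8% of the variance, untreated samples scored -35.5 to -34.3 and A1 + OVA-treated samples 12.8 to 16.2.

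The largest increases included those of secreted and matrix proteins, a protease inhibitor and transcription factors, several of which were near the limit of detection in untreated cells. The 12 genes with the largest increase and the 12 with the largest decrease were taken among called genes whose groups did not overlap and whose log2 CPM, averaged over samples, reached 1. The ranking rests on the contrast itself, so that the changes of its genes and the separation of their groups are a description.

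Serpinb2 (ENSMUSG00000062345, chr1:107511423-107535478), also named PAI-2 and an inhibitor of the plasminogen activator urokinase, was measured at 0.186, 0.650, 0.866 and 0.376 CPM in untreated samples 1 to 4 and at 25.9, 24.8, 26.9 and 23.8 CPM in A1 + OVA-treated samples 1 to 4, which is a log2 fold change of 5.58, SE 0.17, adjusted p = 1.09e-16. Every treated sample lay far above every untreated sample. Ccn2 (ENSMUSG00000019997, chr10:24595442-24598683), connective tissue growth factor and a target of YAP, rose from 116, 134, 122 and 132 CPM to 1529, 1550.2, 1676 and 1552 CPM (a log2 fold change of 3.64, SE 0.069, adjusted p = 3.54e-20). The matrix glycoprotein tenascin C, Tnc (ENSMUSG00000028364, chr4:63959785-64047015), had 82.6, 87.1, 101.6 and 103 CPM in untreated and 802, 731, 860.3 and 851 CPM in treated samples (a log2 fold change of 3.12, SE 0.095, adjusted p = 6.91e-17). Its groups did not overlap either, as the ranking requires, and the lowest treated sample was replicate 2. Sema7a, a semaphorin anchored to the membrane, had 7.92, 6.21, 7.24 and 7.46 CPM against 88.8, 87.2, 92.0 and 88.0 CPM, with a log2 fold change of 3.63, SE 0.071, adjusted p = 4.79e-20.

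Il1a (ENSMUSG00000027399, chr2:129299610-129309972), the alarm cytokine interleukin-1 alpha, was at 0.186, 0.355, 0.186 and 0.314 CPM in untreated and at 3.55, 3.23, 3.10 and 2.65 CPM in treated samples (a log2 fold change of 3.54, SE 0.25, adjusted p = 6.14e-11). The groups were separate, as the ranking requires, but the untreated values are a handful of reads. Acta1, skeletal muscle alpha-actin, had 1.36, 0.650, 1.18 and 1.32 CPM in untreated samples against 7.47, 11.3, 11.4 and 9.31 CPM with A1 + OVA (a log2 fold change of 3.13, SE 0.20, adjusted p = 1.00e-11). Npas4, an early response transcription factor best known from neurons, had 0.309, 0.296, 0.433 and 0.502 CPM and 3.12, 2.66, 5.41 and 4.38 CPM, with replicates 3 and 4 above replicates 1 and 2 in the treated group (a log2 fold change of 3.32, SE 0.33, adjusted p = 1.56e-08). Foxn1, a forkhead factor known from thymus epithelium and skin, was at 0.309, 0.414, 0.309 and 0.251 CPM and 4.204, 4.88, 4.22 and 3.33 CPM (a log2 fold change of 3.65, SE 0.22, adjusted p = 5.42e-12). The serine protease gene Prss46, with 4.39 on the log2 scale, Tmem171, with 2.78, and 9930111J21Rik2, with 3.23, were also among the 12. The reads of 9930111J21Rik2, which belongs to a family of similar genes, may be shared with its relatives.

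**Figure D1:**
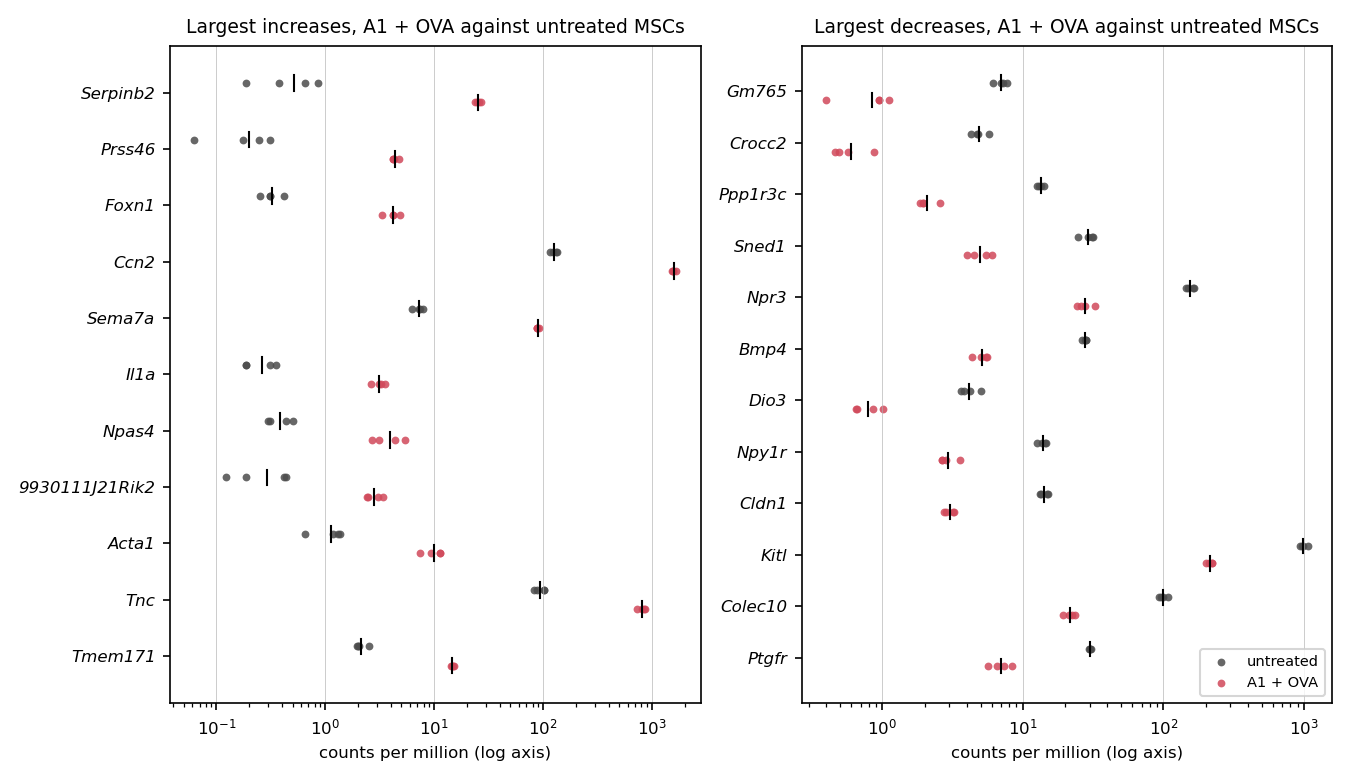
Expression in CPM (log axis) of 11 of the 12 genes with the largest increase (left) and the 12 with the largest decrease (right) in the 4 untreated and the 4 A1 + OVA-treated samples, with a point per sample and a bar at the group mean. The points of the groups do not overlap for any of the 23 genes, as the ranking requires, and Ccn2, Tnc and Kitl combine a large change with a high level.

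Genes of the cytoskeleton and the matrix led the gain in transcript level. On the length-scaled level (counts per kb of exon, scaled as in TPM), Acta2, smooth muscle alpha-actin, went from 4057 ± 199.7 to 7761 ± 121 (SD, n = 4) and Actb, beta-actin, from 4990.4 ± 112 to 8062 ± 565. The matricellular glycoprotein Thbs1, thrombospondin 1, went from 1786 ± 175 to 4091 ± 383, the bone phosphoprotein Spp1, osteopontin, from 2761 ± 94.9 to 5027 ± 343 and Ccn2 from 175 ± 13.1 to 2073 ± 113. Tpm4 and Myl9, a tropomyosin and a myosin light chain, were also among the largest gains. The largest losses included 6 transcripts of the mitochondrial genome, of which mt-Nd1 went from 24756 ± 822 to 20300.0 ± 642, and Cxcl12, which went from 1896 ± 45.3 to 778 ± 29.8. Scd2, a desaturase that makes monounsaturated fatty acids, went from 1301 ± 40.8 to 630.4 ± 18.6.

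**Figure D2:**
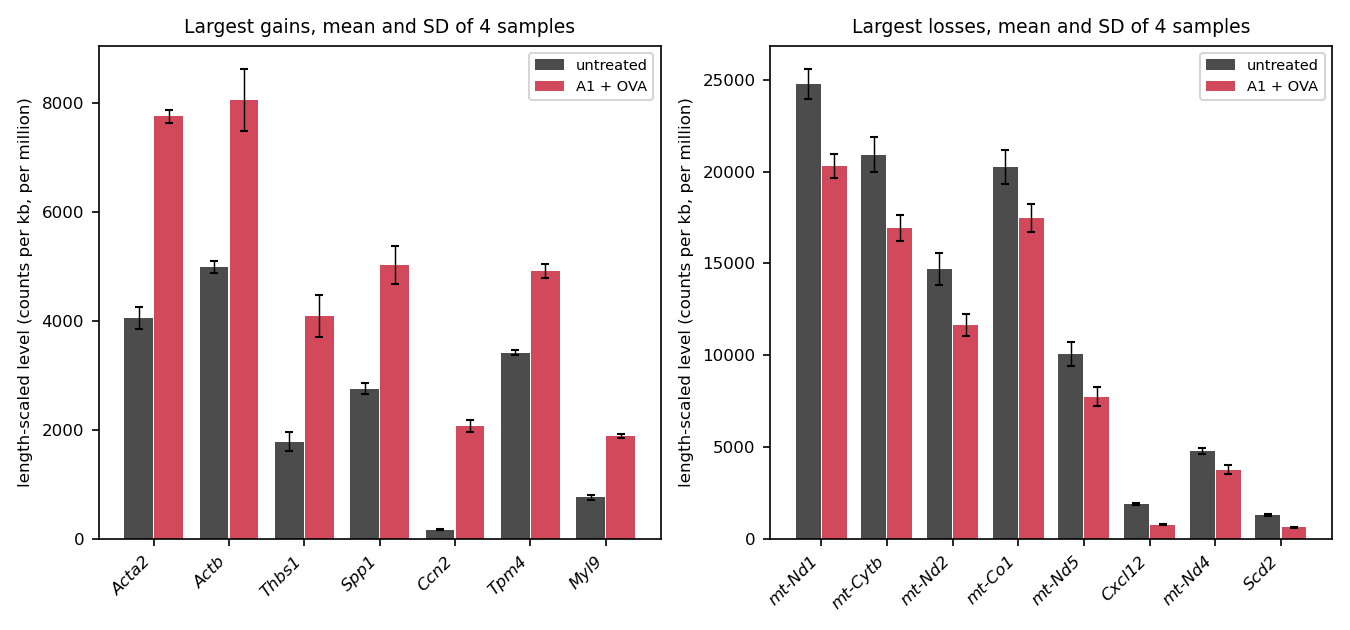
Length-scaled level (counts per kb of exon, scaled as in TPM) of 7 of the 8 genes with the largest gain (left) and the 8 with the largest loss (right), as the mean of 4 samples with the SD as error bar. Acta2 went from 4057 ± 199.7 to 7761 ± 121, and the mitochondrial transcripts lost most in absolute level although their relative changes were small.

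The actin cytoskeleton had the highest median of the 68 gene lists with at least 5 tested members. Of 28 tested genes of the actin cytoskeleton and known SRF targets, 27 were higher, against 29.7% of all tested genes, the other did not pass the test, and 23 were upregulated DEGs, with a median log2 fold change of 0.79 against 0.0036 over all tested genes. Relative to the mean of the untreated samples, the list's median was 0.75 to 0.84 in the 4 A1 + OVA-treated samples and -0.07 to 0.044 in the untreated samples. The actin isoforms moved together, with Acta1 (3.13), Actg2 (1.498), Actg1 (1.04), Acta2 (1.01) and Actb (0.77) on the log2 scale, although reads of such similar genes may be split between them. Acta2 itself had 2427, 2130.4, 2200.0 and 2234 CPM in untreated and 4647, 4634, 4430.2 and 4423 CPM in treated samples. Among the proteins that bind actin in smooth muscle, the calponin Cnn1 (2.26), transgelin Tagln (1.77) and the light chain Myl9 (1.37) rose most. Cnn1 had 4.33, 3.66, 3.71 and 4.51 CPM in untreated and 20.8, 18.5, 20.003 and 18.7 CPM in treated samples, with no overlap (SE 0.095, adjusted p = 1.23e-14). The non-muscle myosin heavy chain Myh9 (0.89), the actinins Actn1 (0.82) and Actn4 (0.80) and vinculin Vcl (0.86), which ties actin to integrins, rose as well. Of the regulators, Srf (0.74) and its partner Mrtfa (0.38) rose, while the other partner, Mrtfb (-0.038, adjusted p = 0.566), did not pass the test.

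The CArG box, the site that SRF binds, consists of CC and GG around A or T bases. It was searched on both strands in the RefSeq promoters (250 bases before to 50 after the start of the gene, build GRCm38.p6), and this motif was added after the list was seen to have the highest median. It was found in 8 of the 25 actin and SRF genes with a promoter sequence (32%) and in 1.81% of all genes. For the 3 members with a whole match before the start that rose most, 100 bases around the match are shown in the direction of the gene, because they let a reader compare the elements, which are in capitals. In Acta1, Myl9 and Actg1 its first base lies 73, 161 and 90 bases before the start.
Acta1 (chr8:123894794-123894893, minus strand): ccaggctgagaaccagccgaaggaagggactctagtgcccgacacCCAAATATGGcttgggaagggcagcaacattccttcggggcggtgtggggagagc
Myl9 (chr2:156775258-156775357, plus strand): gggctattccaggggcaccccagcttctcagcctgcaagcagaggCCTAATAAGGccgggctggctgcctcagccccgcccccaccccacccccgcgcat
Actg1 (chr11:120348531-120348630, minus strand): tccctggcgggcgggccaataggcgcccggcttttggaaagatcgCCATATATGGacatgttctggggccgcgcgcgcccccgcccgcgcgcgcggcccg
A match describes the letters and does not show that SRF is bound there in these cells.

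Adhesion and matrix genes showed the same direction with more exceptions. Of 23 integrin and focal adhesion genes, 16 rose and 2 fell (median 0.45), against 29.7% and 27.9% of all tested genes. The collagen receptor subunit Itga2 went from 0.309, 0.177, 0.124 and 0.125 CPM to 1.01, 0.633, 0.660 and 0.555 CPM (a log2 fold change of 1.89, SE 0.43, adjusted p = 0.000706) and the fibronectin receptor subunit Itga5 from 172, 161, 187 and 188 CPM to 498, 511, 561 and 555 CPM (a log2 fold change of 1.59, SE 0.053, adjusted p = 2.83e-16). Neither gene's groups overlapped, and Itgb3 (1.77), whose product pairs with that of Itgav (0.65), rose too. The collagen and laminin receptor subunit Itga1 (-0.70) and Itgb8 (-0.80), an activator of latent TGF-beta, fell. Of 20 YAP and TEAD targets, 12 rose and 1 fell, with Ccn2 (3.64), Ankrd1 (1.68) and Ccn1 (0.98) among them, whereas Yap1 (-0.073, adjusted p = 0.0872) and Wwtr1 (-0.058, adjusted p = 0.285), which encode YAP and TAZ, did not pass the test.

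The matrix changed in composition. Of 32 collagen and fibrillar matrix genes, 15 were higher and 10 lower (median 0.087), against 29.7% and 27.9% of all tested genes. The basement membrane collagens Col4a1 (0.69) and Col4a2 (0.72), fibronectin, Fn1 (0.54), Col6a3 (0.97) and Thbs1 (1.27) rose with Tnc. The fibrillar collagen Col3a1 (-0.52), the proteoglycans Ogn (-1.22) and Vcan (-0.55) and Sned1 (-2.53) fell, and the main bone and skin collagen, Col1a1 (-0.016, adjusted p = 0.8288), did not pass the test. Sned1, which encodes a matrix protein, had 24.5, 28.8, 31.6 and 31.0 CPM in untreated and 4.49, 3.99, 6.07 and 5.42 CPM in treated samples, with no overlap, as the ranking requires. Of 20 metalloproteinase and inhibitor genes, 7 rose and 6 fell, shares near those over all genes. Up- and downregulated DEGs numbered 6 and 5 of the 20, against 8.92% and 8.79% of all genes. The inhibitors Timp3 (2.09) and Timp1 (1.03) and the stromelysin Mmp10 (2.51) rose, while the aggrecanases Adamts5 (-1.69) and Adamts1 (-1.34) fell. Timp3 had 2.54, 3.66, 4.27 and 3.13 CPM in untreated and 13.6, 15.8, 13.5 and 15.1 CPM in treated samples, so that all treated samples were higher. Of 11 genes of the plasminogen system, 8 rose, among them the urokinase receptor Plaur (2.14) and the activators Plat (0.51) and Plau (0.38), and 2 fell.

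Genes known as targets and feedback inhibitors of ERK signalling were the group with the next highest median. Of 19 ERK feedback genes, 12 rose and 2 fell (median 0.71), against 29.7% and 27.9% of all tested genes. The list's median was 0.43 to 0.73 in the treated samples, with replicate 1 as the lowest. The ERK phosphatases Dusp5 (1.71) and Dusp6 (1.34) and the ETS factors Etv4 (1.64) and Etv5 (1.01) rose, while Spry1 (-0.68) and Dusp10 (-0.30) fell. Dusp6 had 9.41, 10.6, 9.22 and 9.34 CPM in untreated and 23.8, 26.1, 24.5 and 23.4 CPM in treated samples (a log2 fold change of 1.34, SE 0.075, adjusted p = 1.58e-12), with no overlap. Of 25 early response transcription factors, 19 rose and 1 fell (median 0.71), with Fosl1 (1.63), Nr4a1 (1.62) and Egr3 (1.42) in the lead and Myc (0.95) and Jun (0.73) among the rest. Fosl2 (-0.29) was the exception, and Fos (-0.73, adjusted p = 0.0512) did not pass the test at this low level. Fosl1, an AP-1 subunit, had 43.1, 41.3, 44.1 and 45.8 CPM in untreated and 139.7, 132, 137 and 129 CPM in treated samples, and the groups did not overlap.

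Ligands of growth factor receptors rose and fell in separate sets. Over all tested genes 29.7% were higher and 27.9% lower. Of 10 EGF receptor ligand and receptor genes, 7 rose and 1 fell. The ligands Hbegf (2.47), Btc (1.87) and Ereg (1.55) rose, as did the receptor inhibitor Errfi1 (0.87), while the receptor itself, Egfr (-0.76), fell. Hbegf had 9.28, 9.99, 9.59 and 9.78 CPM in untreated and 51.9, 50.4, 55.5 and 55.8 CPM in treated samples (a log2 fold change of 2.47, SE 0.063, adjusted p = 4.87e-18). All 4 treated samples were above all untreated ones. Of 22 VEGF family and angiogenic genes, 11 rose and 9 fell. Fgf2 (2.69), Pdgfb (1.73), Pdgfa (1.45), Edn1 (1.36), Pgf (1.13) and Vegfa (1.10) rose, whereas Angpt1 (-2.02), the TIE2 ligand, and the VEGF receptor ligand Vegfd (-1.79) fell. Angpt1 had 460.1, 508, 446 and 435 CPM in untreated and 122, 114, 102.1 and 117 CPM in treated samples, without overlap (a log2 fold change of -2.02, SE 0.053, adjusted p = 6.52e-18). Of 22 TGF-beta genes, 10 were higher and 10 lower. Up- and downregulated DEGs numbered 7 and 1 of the 22, against 8.92% and 8.79% of all genes. Inhba (1.73), the activin subunit, Pmepa1 (1.56) and Tgfb1 (0.63) were higher and the receptors Tgfbr2 (-0.28) and Tgfbr3 (-0.72) lower.

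Single cytokines and chemokines changed in both directions. The shares called were near those over all genes (29.7% higher and 27.9% lower), but most of the called genes were DEGs. Up- and downregulated DEGs numbered 4 and 4 of 13 tested cytokine genes and 3 and 3 of 12 chemokine genes. Over all genes the DEG shares were 8.92% and 8.79%. Of 30 cytokine and colony-stimulating factor genes, 13 passed the filter on low counts, 4 rose and 5 fell. The IL-6 family cytokine Lif went from 0.495, 0.236, 0.619 and 0.251 CPM to 1.67, 2.03, 1.65 and 2.03 CPM (a log2 fold change of 2.19, SE 0.32, adjusted p = 4.24e-06), while Il6 had 1.11, 1.30, 1.11 and 1.57 CPM and 0.870, 0.696, 0.792 and 0.863 CPM (a log2 fold change of -0.66, SE 0.23, adjusted p = 0.0192), a difference that did not pass the test in DESeq2. Il15, which supports natural killer and memory T cells, went from 1.05, 1.42, 0.990 and 1.19 CPM to 0.145, 0.0633, 0.0660 and 0.123 CPM, a log2 fold change of -3.46, SE 0.37, adjusted p = 5.17e-08. The treated samples hold 6 reads of Il15 in all, which gives a ratio of 0.0845 to untreated cells with an exact 95% interval for counting error of 0.0301 to 0.193. Of 12 tested chemokine genes, 3 rose and 4 fell. The neutrophil chemokine Cxcl1 had 196, 214, 196 and 190.4 CPM in untreated and 58.9, 55.1, 54.9 and 59.3 CPM in treated samples (a log2 fold change of -1.80, SE 0.049, adjusted p = 1.08e-17), and Cxcl5, with 85 counts in the 4 untreated and 4 in the 4 treated samples, fell with it (a log2 fold change of -4.15, SE 0.51, adjusted p = 4.11e-07). Cxcl14 rose from 1.05, 1.36, 1.11 and 1.25 CPM to 5.00, 5.38, 5.48 and 5.18 CPM (a log2 fold change of 2.13, SE 0.14, adjusted p = 3.26e-11). The monocyte chemokines Ccl2 (0.067, adjusted p = 0.172) and Ccl7 (-0.013, adjusted p = 0.789) did not pass the test. Of the prostaglandin genes, Ptgs2 (2.06), which encodes the inducible cyclooxygenase, and Ptges (1.29), the synthase of prostaglandin E2, rose and the receptor Ptgfr (-2.11) fell.

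Several factors through which marrow stroma supports blood-forming cells were lower. In bulk RNA, fewer cells of a type and less RNA per cell cannot be told apart. Kitl (ENSMUSG00000019966, chr10:100015630-100100416), the ligand of KIT, had 989.5, 1067, 973 and 937 CPM in untreated and 221, 213, 201 and 223 CPM in treated samples (a log2 fold change of -2.21, SE 0.048, adjusted p = 3.54e-19). Cxcl12 (ENSMUSG00000061353, chr6:117168535-117181367), which keeps blood-forming cells in the marrow, had 4029, 4004, 3854 and 3753 CPM and 1654, 1686, 1654 and 1775 CPM (a log2 fold change of -1.21, SE 0.04, adjusted p = 2.73e-16). Both genes were lower in every treated sample than in any untreated one, which the ranking requires for Kitl. Il7, which lymphocyte precursors need, fell from 12.7, 12.4, 10.8 and 12.8 CPM to 5.44, 3.67, 3.63 and 4.93 CPM (a log2 fold change of -1.47, SE 0.11, adjusted p = 3.41e-10). Igf1, the insulin-like growth factor, fell from 22.4, 22.3, 23.3 and 23.1 CPM to 5.00, 5.70, 5.08 and 5.30 CPM (a log2 fold change of -2.11, SE 0.079, adjusted p = 1.79e-15). Among 16 tested MSC surface and niche markers, 7 fell, with Pdgfra (-1.16) and Vcam1 (-0.89) besides Kitl and Cxcl12. Another 4 rose, which were Nes (1.97), Cd44 (1.20), Mcam (1.14) and Itgb1 (0.56). Over all tested genes 27.9% were lower and 29.7% higher. Up- and downregulated DEGs numbered 4 and 4 of the 16, against 8.92% and 8.79% of all genes, with a list median of -0.082. The summed level of the 20 markers written was 7680 to 8221 CPM in untreated and 5409 to 5672 CPM in treated samples.

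The other leading decreases were of low to middle abundance. Npr3, the clearance receptor of natriuretic peptides, had 151, 166, 161 and 145 CPM in untreated and 25.8, 32.5, 27.7 and 24.3 CPM in treated samples (a log2 fold change of -2.49, SE 0.065, adjusted p = 5.30e-18). Bmp4, a bone morphogenetic protein, had 27.97, 26.5, 28.2 and 27.5 CPM and 5.44, 5.00, 5.55 and 4.38 CPM (a log2 fold change of -2.44, SE 0.08, adjusted p = 2.06e-16). For both genes the groups were separate, as the ranking requires. Ppp1r3c, a subunit that brings protein phosphatase 1 to glycogen, fell from 14.2, 12.7, 13.5 and 13.1 CPM to 1.96, 1.96, 1.85 and 2.59 CPM (a log2 fold change of -2.67, SE 0.11, adjusted p = 1.26e-14). Crocc2, related to the ciliary rootlet protein, had -3.02 on the log2 scale, Gm765 -3.03, the deiodinase Dio3 -2.36, the neuropeptide Y receptor Npy1r -2.25, the tight junction protein Cldn1 -2.23, the collectin Colec10 -2.20 and the prostaglandin F receptor Ptgfr -2.11.

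Pathways of stromal cell fate were mostly lower. The counts in these lists stand against 27.9% lower and 29.7% higher over all tested genes. Of 18 BMP genes, 13 fell and 2 rose (median -0.33). Their log2 fold changes ran from -2.44 to 5.07, and 4 were downregulated DEGs and 1 was an upregulated DEG. The ID genes Id2 (-0.34), Id3 (-0.47) and Id4 (-1.12), which BMP signals induce, were lower, while the target Id1 (-0.023, adjusted p = 0.714) did not pass the test. Of 17 WNT genes, 12 fell and 3 rose (median -0.39). The receptor Fzd1 (-1.45), the agonist Rspo3 (-1.17), the decoy Sfrp1 (-1.16) and the R-spondin receptor Lgr5 (-1.14) fell, and the nuclear factor Lef1 (1.24) rose. Of 19 insulin, IGF and FoxO genes, 12 fell and 6 rose, the adapter Irs1 (-0.89) and the FoxO targets Sesn3 (-1.48) and Sesn1 (-0.999) among the former and Irs2 (0.76) and Igfbp4 (0.62) among the latter. Of 40 primary cilium and hedgehog genes, 28 were lower and 1 higher (median -0.36), with Crocc2 (-3.02) as the lowest. Gli2 (-1.74) and Gli1 (-1.40), the effectors of hedgehog signals, were lower as well. Gli1 had 2.48, 3.55, 2.35 and 2.70 CPM in untreated and 0.870, 0.380, 1.19 and 1.73 CPM in treated samples, with no overlap.

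Genes of fat cells fell, and those of bone went in both directions. Of 22 adipogenic and lipid storage genes, 14 fell and 4 rose (median -0.40). Lipoprotein lipase, Lpl, had 1728, 1969.6, 1873 and 1789.5 CPM in untreated and 688, 695, 649.7 and 721 CPM in treated samples (a log2 fold change of -1.42, SE 0.043, adjusted p = 6.93e-17), without overlap. The fat cell regulators Cebpa (-1.18), Zfp423 (-1.51) and Ebf1 (-1.17) fell, while Pparg (-0.10, adjusted p = 0.0652) did not pass the test. Of 17 osteogenic genes, 7 rose and 4 fell, against 29.7% and 27.9% of all tested genes. Up- and downregulated DEGs numbered 5 and 4, against 8.92% and 8.79%. Dlx5 (-2.61), Omd (-1.88) and the bone regulator Runx2 (-0.59) were lower. Enpp1 (1.31), Ank (1.08) and Spp1 (0.94), which act on phosphate and mineral, were higher.

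Cholesterol synthesis had the lowest median of the 68 lists with at least 5 tested members. Of 22 genes of the pathway, 19 were lower, against 27.9% of all tested genes, with a median of -0.93, and in the treated samples the list's median was -0.95 to -0.89, against -0.033 to 0.011 in untreated ones. The decrease ran through the pathway, from the synthase Hmgcs1 (-1.08) through Mvd (-1.11), Idi1 (-1.33) and Fdps (-1.25) to squalene epoxidase, Sqle (-1.02), and the late steps Cyp51 (-0.94), Nsdhl (-1.25) and Dhcr7 (-0.79). Hmgcs1 had 569.8, 629, 581 and 580.4 CPM in untreated and 276, 282, 264 and 295 CPM in treated samples (SE 0.044, adjusted p = 9.30e-15). Sqle had 439, 435, 441 and 445 CPM and 221, 227, 201 and 218 CPM (SE 0.037, adjusted p = 1.29e-15). For both, each treated sample lay below each untreated one. The members that did not pass the test were Ggps1 (-0.062, adjusted p = 0.297), Ebp (0.02, adjusted p = 0.775) and Lbr (0.043, adjusted p = 0.379). Of 15 genes of SREBP regulation and sterol uptake, 8 fell and 2 rose, with the SREBP inhibitor Insig1 (-0.89), Srebf2 (-0.38) and the sterol carrier Stard4 (-0.63) lower and the esterifying enzyme Soat1 (0.81) higher. Of 12 LXR targets, the apolipoprotein Apoe (0.74) and Arl4c (0.94) rose, 5 fell, and the efflux pump Abca1 (-0.037, adjusted p = 0.792) did not pass the test. Apoe lost its call without replicate 1 of the untreated group (0.52) and without replicate 3 or 4 of the A1 + OVA group (0.59 and 0.61).

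The sterol regulatory element (SRE), TCACNCCAC on either strand, was found in 1 of the 17 cholesterol synthesis genes with a promoter sequence (5.88%) and in 1.44% of all genes. The promoter that holds it is that of Hmgcs1, the synthase that makes HMG-CoA, where the element starts 137 bases before the gene, and 100 bases around it are shown with the element in capitals.
Hmgcs1 (chr13:119690168-119690267, plus strand): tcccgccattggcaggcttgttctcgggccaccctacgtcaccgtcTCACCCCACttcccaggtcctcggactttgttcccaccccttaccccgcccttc
Sequences outside this window and other forms of the element were not searched.

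Fatty acid genes followed. Over all tested genes 27.9% were lower. Of 15 genes of fatty acid synthesis and desaturation, 12 fell and the others did not pass the test (median -0.58), with Acss2 (-1.32), which makes acetyl-CoA from acetate, the elongase Elovl6 (-1.20), the desaturases Scd2 (-0.97) and Scd1 (-0.85), Acly (-0.61), Acaca (-0.58) and Fasn (-0.40). Scd2 had 1738, 1837, 1785 and 1809.5 CPM in untreated and 914, 946, 871 and 934 CPM in treated samples (a log2 fold change of -0.97, SE 0.036, adjusted p = 1.84e-15), and the groups were apart. Of 29 genes of fatty acid oxidation, 24 fell and the others did not pass the test (median -0.35), among them Acadm (-1.24), the medium-chain dehydrogenase, and Cpt1a (-0.72), which lets fatty acids into mitochondria. Acadm had 241, 243, 225 and 236 CPM in untreated and 97.3, 101.7, 93.5 and 107 CPM in treated samples, with no overlap.

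**Figure D3:**
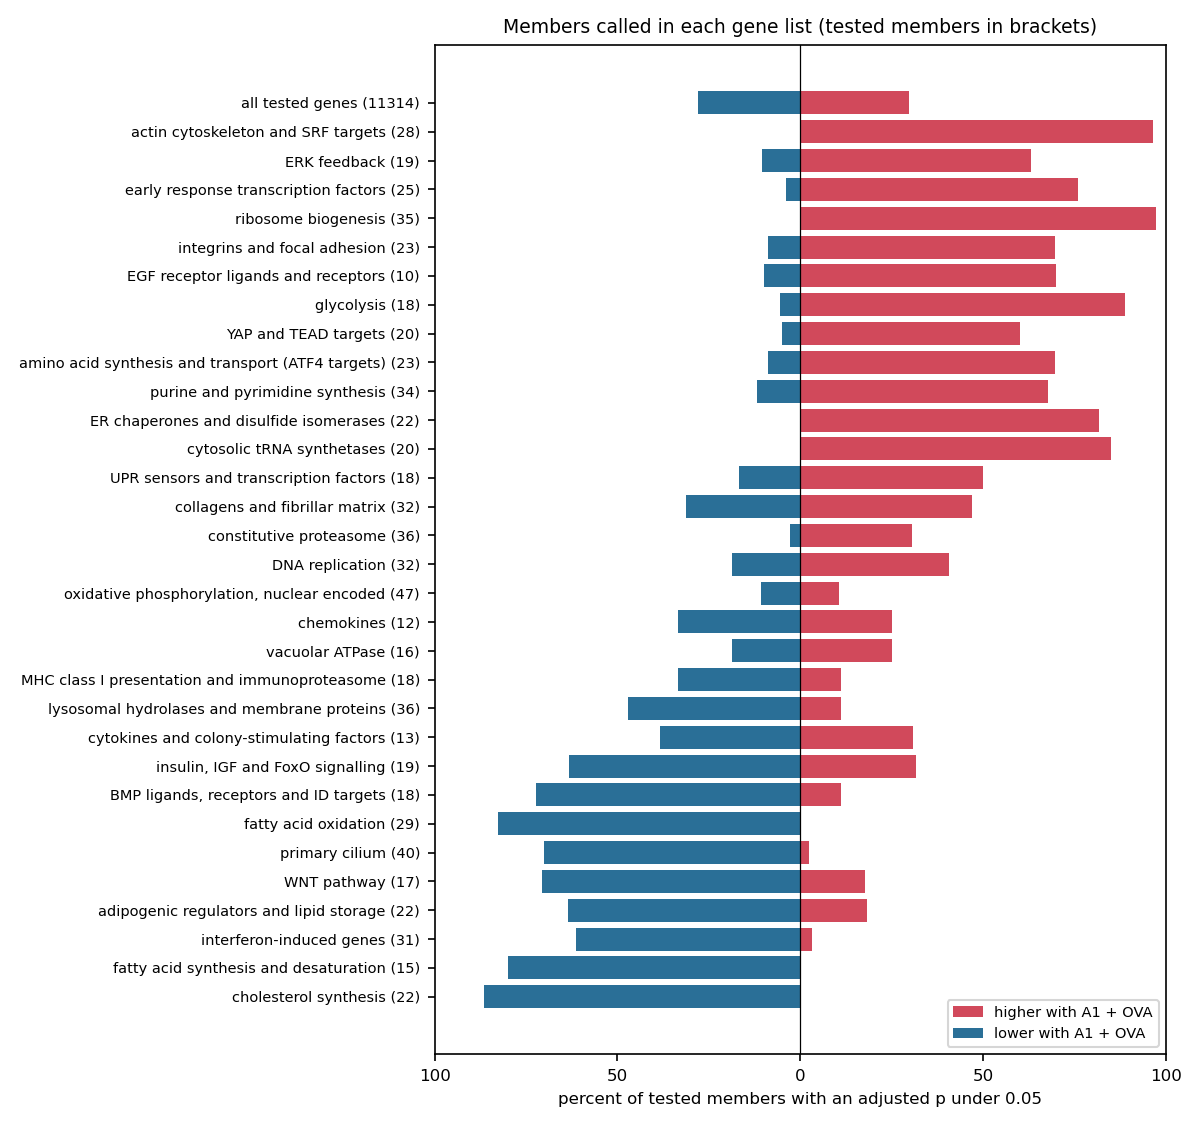
Percent of the tested members of 31 gene lists that were called higher (right) or lower (left) with A1 + OVA at an adjusted p-value under 0.05, ordered by median log2 fold change, with all 11314 tested genes in the top bar (29.7% higher, 27.9% lower). Actin and ribosome biogenesis genes were called almost throughout as higher, and cholesterol synthesis and fatty acid oxidation genes as lower. These 31 of the 71 lists were chosen for the plot after their medians were known.

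Protein folding and amino acid supply rose in a moderate way. Of 22 ER chaperones and disulfide isomerases, 18 rose and the others did not pass the test (median 0.24). Hspa5, or BiP, the chaperone that holds the ER stress sensors inactive, had 1587, 1728, 1634 and 1596 CPM in untreated and 2558, 2550.5, 2348 and 2483 CPM in treated samples (a log2 fold change of 0.60, SE 0.042, adjusted p = 6.34e-11), with no overlap. Creld2 (0.72), Manf (0.71) and Hyou1 (0.66), all ER proteins induced by stress, rose as well, while Canx (-0.0025, adjusted p = 0.963) and Dnajc3 (-0.00096, adjusted p = 0.986) did not pass the test. Of 18 sensors and transcription factors of the unfolded protein response (UPR), 9 rose and 3 fell, against 29.7% and 27.9% of all tested genes. Atf6 (0.88), Atf3 (0.68), Atf4 (0.37) and Xbp1 (0.36) rose, while Ddit3 (-0.055, adjusted p = 0.57), which encodes the stress factor CHOP, did not pass the test. The read count of Xbp1 does not separate its spliced form. Of 19 genes of ER-associated degradation, 4 rose and 2 fell, which is under the shares over all genes.

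Of 23 ATF4 targets of amino acid synthesis and transport, 16 rose and 2 fell (median 0.29), against 29.7% and 27.9% of all tested genes. The cystine transporter Slc7a11 had 4.52, 4.43, 4.64 and 5.33 CPM in untreated and 14.1, 13.6, 12.4 and 13.9 CPM in treated samples (a log2 fold change of 1.51, SE 0.10, adjusted p = 1.74e-11). The glutathione-degrading enzyme Chac1 had 7.67, 7.09, 8.54 and 7.46 CPM and 21.02, 20.1, 20.9 and 18.9 CPM (a log2 fold change of 1.39, SE 0.076, adjusted p = 9.73e-13). In both genes all treated samples were higher, and the transporters Slc7a1 (0.94) and Slc7a5 (0.76) rose too, whereas the glutamine transporter Slc38a2 (-0.51) fell. Of 20 cytosolic tRNA synthetases, 17 rose and the others did not pass the test, with the asparagine enzyme, Nars (0.35), as an example.

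The ATF4 element, TGATGNAA on either strand, was present in the promoters of 8 of 21 ATF4 targets (38.1%) and of 4.51% of all genes. The ER stress element, CCAAT, 9 bases and CCACG, was present in 7 of 18 ER chaperone genes (38.9%) and in 0.137% of all genes. For each element, the 3 members with a whole match before the start that rose most are shown over 100 bases, with the elements, read on either strand, in capitals. The element nearest the start begins 47, 193 and 110 bases before the start of Slc7a11, Chac1 and Nupr1, a small stress protein, and 126, 65 and 98 bases before that of Creld2, Hspa5 and the disulfide isomerase Pdia6.
Slc7a11 (chr3:50443614-50443713, minus strand): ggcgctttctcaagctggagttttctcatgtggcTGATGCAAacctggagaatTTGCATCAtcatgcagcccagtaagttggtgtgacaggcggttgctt
Chac1 (chr2:119351003-119351102, plus strand): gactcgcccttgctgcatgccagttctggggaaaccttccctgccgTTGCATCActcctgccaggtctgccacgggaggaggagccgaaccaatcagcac
Nupr1 (chr7:126625527-126625626, minus strand): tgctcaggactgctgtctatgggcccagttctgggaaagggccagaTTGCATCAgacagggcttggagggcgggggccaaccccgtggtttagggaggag
Creld2 (chr15:88819479-88819578, plus strand): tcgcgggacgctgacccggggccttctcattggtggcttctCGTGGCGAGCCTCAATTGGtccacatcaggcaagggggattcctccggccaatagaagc
Hspa5 (chr2:34771984-34772083, plus strand): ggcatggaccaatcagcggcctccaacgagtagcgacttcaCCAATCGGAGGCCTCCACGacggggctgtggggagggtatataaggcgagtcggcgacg
Pdia6 (chr12:17266450-17266549, plus strand): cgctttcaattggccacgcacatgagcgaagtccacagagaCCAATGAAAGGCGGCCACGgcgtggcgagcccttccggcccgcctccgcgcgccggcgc
The log2 fold changes of Nupr1 and Pdia6 were 0.85 and 0.28.

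Ribosome biogenesis genes rose almost throughout, against 29.7% of all tested genes. Of 35 genes, 34 rose, the other did not pass the test, and 22 were upregulated DEGs (median 0.57), and the list's median was 0.56 to 0.60 in the treated samples. Rrp12 (1.09) and Rrp9 (1.02), which process ribosomal RNA, the RNA polymerase I subunit Polr1b (0.87) and nucleolin, Ncl (0.44), are examples. Rrp12 had 28.3, 30.03, 34.1 and 28.9 CPM in untreated and 64.1, 61.2, 69.8 and 62.8 CPM in treated samples (a log2 fold change of 1.09, SE 0.061, adjusted p = 1.72e-12), with separate groups. Of 63 cytosolic ribosomal protein genes, 43 were called higher and the rest did not pass the test, with a small median of 0.14, and their reads may be shared with pseudogenes. Of 34 genes of purine and pyrimidine synthesis, 23 rose and 4 fell, with Pfas (0.73) and Mthfd2 (0.62) in the lead, and of 36 translation initiation factors 24 rose and 2 fell.

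Glycolysis genes rose, while few nuclear genes of the respiratory chain were called. Of 18 glycolysis genes, 16 were higher and 1 lower (median 0.32), with the muscle phosphofructokinase Pfkm (-0.50) as the exception. The glucose transporter Slc2a1 had 41.6, 37.3, 39.6 and 41.2 CPM in untreated and 111, 110.0, 114 and 106 CPM in treated samples (a log2 fold change of 1.47, SE 0.046, adjusted p = 1.20e-16), and hexokinase 2, Hk2, had 41.8, 45.3, 46.7 and 45.4 CPM and 92.6, 95.3, 118 and 107 CPM (a log2 fold change of 1.21, SE 0.076, adjusted p = 1.11e-11). Both were higher in every treated sample. Of 47 nuclear genes of oxidative phosphorylation, 5 rose and 5 fell, under the shares over all genes. Of the 13 protein genes of the mitochondrial genome, 7 were tested and 6 fell (median -0.23), while the share of counts from the mitochondrial genome was 3.35 to 3.65% in untreated and 2.77 to 3.06% in treated samples. The other 6 were listed at or near 0 in every sample, as mt-Co2 and mt-Atp6, and are not interpreted. Of 20 genes induced by hypoxia, 14 rose, with Car12 (1.90) and Vegfa (1.10) among them, and 3 fell, against 29.7% and 27.9% of all tested genes.

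Interferon-induced genes were lower after A1 + OVA. Of 45 such genes, 31 were tested, 19 fell and 1 rose (median -0.49), against 27.9% and 29.7% of all tested genes. The list's median was -0.54 to -0.38 in the treated samples. Irf7, the factor that amplifies the interferon response, had 1.24, 1.71, 1.36 and 1.505 CPM in untreated and 0.725, 0.696, 0.330 and 0.555 CPM in treated samples (a log2 fold change of -1.33, SE 0.28, adjusted p = 0.000408), without overlap. The RNA sensors Ifih1 (-0.96) and Ddx58 (-0.83) and the effector Ifit3 (-0.81) fell, the RNA editing enzyme Adar (0.27) rose, and Isg15 (-0.76, adjusted p = 0.0677) did not pass the test. Reads of the Ifit family may be shared between its members. The interferon element, GAAANNGAA on either strand, was found in 21 of 34 genes with a promoter (61.8%) and in 9.76% of all genes. It is shown in capitals over 100 bases for Igtp, an interferon-induced GTPase, Ifih1 and Ifit3, the 3 members with a whole match before the start that fell most, and the element nearest the start begins 34 bases before that of Igtp. In Ifih1 the element shown begins 112 bases before the start, and another match after the start is not shown.
Igtp (chr11:58199456-58199555, plus strand): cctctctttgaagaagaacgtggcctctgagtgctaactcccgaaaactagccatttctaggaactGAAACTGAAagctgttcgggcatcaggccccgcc
Ifih1 (chr2:62646314-62646413, minus strand): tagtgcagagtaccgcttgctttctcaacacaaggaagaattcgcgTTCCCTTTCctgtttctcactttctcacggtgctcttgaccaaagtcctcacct
Ifit3 (chr19:34583381-34583480, plus strand): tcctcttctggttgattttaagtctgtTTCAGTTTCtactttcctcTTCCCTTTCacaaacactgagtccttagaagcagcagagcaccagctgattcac
The log2 fold change of Igtp was -0.99.

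Genes of antigen presentation on MHC class I had a median near 0, with more genes called lower than higher. Of 18 tested genes, 2 were called higher and 6 lower, against 29.7% and 27.9% of all tested genes, with a median of -0.071. Up- and downregulated DEGs numbered 0 and 4, against 8.92% and 8.79% of all tested genes. The heavy chains H2-K1 and H2-D1 and their partner B2m did not pass the test: H2-K1 had 11.8, 10.4, 10.3 and 9.41 CPM in untreated and 9.13, 9.50, 9.77 and 10.1 CPM in treated samples, with a log2 fold change of -0.12, SE 0.088, adjusted p = 0.255. The groups overlapped, and the values of H2-D1 (-0.10, adjusted p = 0.0508) and B2m (-0.042, adjusted p = 0.462) were as close to 0, while reads may be split between these similar heavy chains. The peptide transporter subunits Tap1 (-0.75) and Tap2 (-0.60) and the regulator Nlrc5 (-0.71) fell, while the immunoproteasome subunits Psmb8 (-0.26, adjusted p = 0.558) and Psmb10 (0.16, adjusted p = 0.163) did not pass the test. The third subunit, Psmb9, was under 2 CPM and was called lower in edgeR (a log2 fold change of -0.82, SE 0.35, adjusted p = 0.0491) but not in DESeq2. Tap1 had 17.7, 11.9, 13.6 and 13.7 CPM in untreated and 7.47, 7.79, 8.85 and 9.61 CPM in treated samples, each treated sample below each untreated one. Of 36 genes of the constitutive proteasome, 11 were higher, a share near that over all genes, and 1 lower.

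Lysosome genes were mixed, and the counts of called list members here stand against 29.7% higher and 27.9% lower over all tested genes. Of 36 lysosomal hydrolase and membrane protein genes, 17 were lower and 4 higher (median -0.12), with Ctsf (-0.86) and Gla (-0.63) lowest. Of 16 subunits of the vacuolar ATPase, 4 rose and 3 fell, and of 19 galectin and lysosome damage genes 6 rose and 10 fell. The TFEB element, TCACGTG, was in 30% of the lysosomal promoters and 4.29% of all, and the AP-1 element, TGANTCA, in 21.1% of the metalloproteinase promoters and 8.97% of all. Of 28 NRF2 targets, 14 rose, with Slc7a11 (1.51), Gss (0.93) and Txnrd1 (0.89) in the lead, and 7 fell. Of 26 heat shock chaperones 12 rose and 5 fell. Of 27 p53 targets, 13 rose and 6 fell, and in the BCL2 family Pmaip1 (1.33) and Bok (1.26) rose while Bmf (-1.44) and Bcl2l11 (-0.95) fell.

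**Figure D4:**
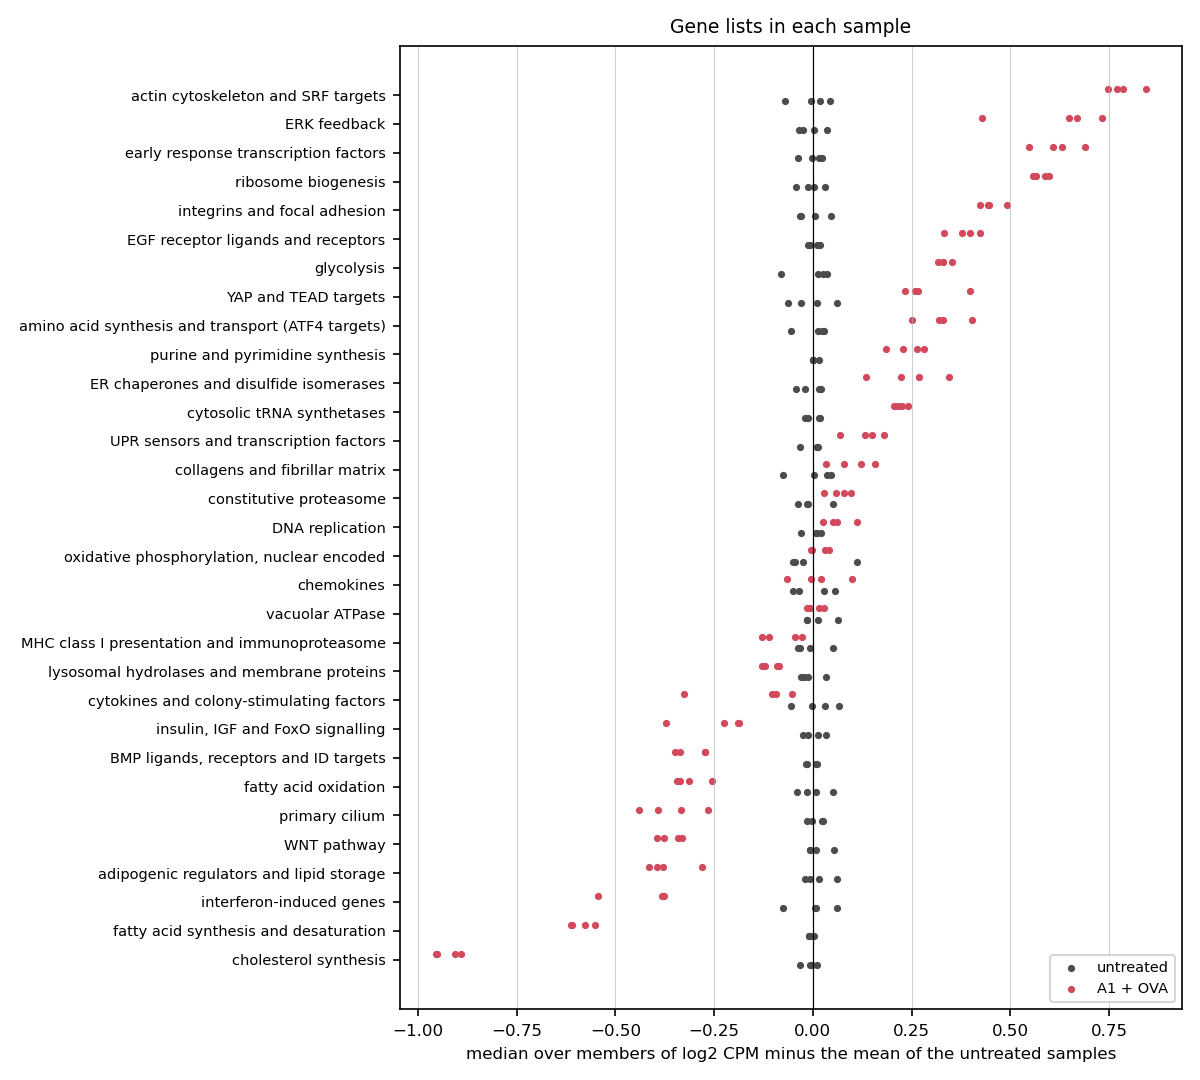
Median over the tested members of 31 gene lists of the log2 CPM in each sample minus the mean of the untreated samples, for the 4 untreated and the 4 A1 + OVA-treated samples. For cholesterol synthesis the treated samples lie at -0.95 to -0.89 and for the actin list at 0.75 to 0.84, away from the untreated samples, while for chemokines and the vacuolar ATPase the groups overlap.

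Of all 68 lists with at least 5 tested members, 14 had a median above the upper quartile of all tested genes, 14 a median below the lower quartile and 40 a median between them. The Reactome pathways give a description that does not rest on these lists, although its gene sets share members with them. Among 621 pathways with 15 to 200 tested members, the 5 with the highest medians were Syndecan interactions (18 of 24 tested members higher, 3 lower, median 0.55), Cell-extracellular matrix interactions (15 of 18 tested members higher, 1 lower, median 0.54), Non-integrin membrane-ECM interactions (28 of 42 tested members higher, 7 lower, median 0.49), Muscle contraction (22 of 36 tested members higher, 5 lower, median 0.37) and Smooth Muscle Contraction (14 of 23 tested members higher, 5 lower, median 0.36). The 5 with the lowest were Cholesterol biosynthesis (1 of 22 tested members higher, 18 lower, median -0.92), Activation of gene expression by SREBF (1 of 23 tested members higher, 19 lower, median -0.59), Regulation of cholesterol biosynthesis by SREBP (6 of 36 tested members higher, 23 lower, median -0.39), Mitochondrial Fatty Acid Beta-Oxidation (0 of 15 tested members higher, 13 lower, median -0.35) and Peroxisomal lipid metabolism (1 of 19 tested members higher, 12 lower, median -0.33).

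A1 + OVA was then compared with A1 alone, to find where the combined treatment differed. The label names insulin only for the A1 + OVA medium, so that an effect of insulin, if added, cannot be told apart from that of OVA. Between these groups 685 genes (6.05%) were higher and 770 (6.81%) lower with A1 + OVA, of which 87 (0.769%) and 49 (0.433%) were DEGs. The counts of genes with an adjusted p-value under 0.05 rest in part on single libraries: they were 456 to 771 higher and 497 to 848 lower when each of the 12 samples was left out in turn, with 456 higher without replicate 1 of A1 and 497 lower without replicate 4 of A1 + OVA. In edgeR's test against a log2 fold change of 0.5 rather than 0, 3 genes were lower and 0 higher, with 36 and 48 at an unadjusted p-value under 0.05, and DESeq2 gave 72 DEGs higher and 39 lower.

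Among called genes whose groups did not overlap and whose log2 CPM averaged 1 or more over the samples, the largest difference was that of Txnip, an inhibitor of glucose uptake and of thioredoxin, which had 59.2, 59.99, 64.7 and 58.4 CPM in untreated, 77.7, 74.97, 78.8 and 79.8 CPM in A1-treated and 28.7, 34.6, 28.2 and 31.6 CPM in A1 + OVA-treated samples (log2 difference -1.34, SE 0.058, adjusted p = 2.42e-12). The A1-treated samples lay above and the A1 + OVA-treated samples below the untreated ones, and all 3 groups were separate. The collagenase Mmp13 had 40.2, 47.2, 38.2 and 39.9 CPM in untreated, 93.9, 91.5, 96.0 and 90.8 CPM with A1 and 45.2, 43.1, 34.7 and 39.8 CPM with A1 + OVA (log2 difference -1.20, SE 0.068, adjusted p = 2.66e-10), so that the A1 + OVA-treated samples overlapped with the untreated ones. Egr3, an early response factor, had 14.5, 14.7, 13.9 and 13.4 CPM with A1 and 6.67, 6.65, 6.07 and 7.27 CPM with A1 + OVA (log2 difference -1.08, SE 0.10, adjusted p = 2.79e-07), which lies between A1 and untreated cells, and its relative Egr2 likewise (log2 difference -1.06, SE 0.14, adjusted p = 2.53e-05). Cxcl14, a chemokine, had 10.3, 9.01, 9.01 and 8.57 CPM with A1 and 5.00, 5.38, 5.48 and 5.18 CPM with A1 + OVA (log2 difference -0.81, SE 0.10, adjusted p = 1.45e-05). The PDGF chain Pdgfb had 2.39, 2.21, 2.82 and 2.32 CPM with A1 and 4.204, 5.45, 5.94 and 5.24 CPM with A1 + OVA (log2 difference 1.10, SE 0.14, adjusted p = 2.43e-05), and the vasoconstrictor endothelin 1, Edn1, had 10.6, 13.7, 14.4 and 14.6 CPM and 20.4, 25.3, 27.5 and 23.05 CPM (log2 difference 0.86, SE 0.10, adjusted p = 5.46e-06). Both were further from untreated cells with A1 + OVA than with A1. The interleukin Il18 (0.87), the dehydrogenase Aldh1a7 (0.98), Nckap5 (0.85) and the leukocyte integrin chain Itgb2 (0.81) were also higher than with A1 alone, and Lrrc4c was lower (-0.94). Without replicate 1 of A1, Il18 (0.73) and Itgb2 (0.61) no longer passed the test.

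Among the leading genes of the response to A1 + OVA, Sema7a was lower than with A1 (log2 difference -0.38, SE 0.051, adjusted p = 3.42e-05), with 104, 117, 119 and 124 CPM in the A1-treated samples. Colec10 (-0.53, adjusted p = 2.08e-05) and Serpinb2 (-0.28, adjusted p = 0.0350) were lower too. Sned1 (0.62, adjusted p = 0.0141), Npas4 (0.72, adjusted p = 0.0426) and Foxn1 (0.44, adjusted p = 0.0439) were higher. For Serpinb2 and Npas4 the A1 and A1 + OVA samples overlapped. The values for Kitl (0.01, adjusted p = 0.918), Ccn2 (0.18, adjusted p = 0.0615) and Acta2 (0.069, adjusted p = 0.283) did not pass the test. The comparisons of A1 and of A1 + OVA with untreated cells share the same 4 untreated samples. Side by side, the log2 fold changes with A1 and with A1 + OVA were 5.86 and 5.58 for Serpinb2, 3.47 and 3.64 for Ccn2, -2.22 and -2.21 for Kitl and 1.48 and 0.94 for Spp1.

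The counts by list stand against 6.05% higher and 6.81% lower over all genes. By list, 16 of 36 lysosomal genes were higher with A1 + OVA than with A1 and the rest did not pass the test (median difference 0.13), and 8 of 16 vacuolar ATPase subunits were higher too. The sialidase Neu1 had 21.9, 23.3, 20.5 and 20.6 CPM with A1 and 26.5, 28.999, 33.4 and 31.6 CPM with A1 + OVA (log2 difference 0.48, SE 0.074, adjusted p = 0.000173), with 32.4, 28.5, 29.3 and 28.4 CPM in untreated cells. Of 32 DNA replication genes, 20 were lower than with A1 (median -0.21), and of 30 mitosis genes 10 were lower, while the rest of both lists did not pass the test. The helicase subunit Mcm5 had 163, 144, 152 and 153 CPM with A1 and 125, 116, 127 and 120.3 CPM with A1 + OVA (log2 difference -0.33, SE 0.043, adjusted p = 3.46e-05). Against untreated cells the replication genes had 13 higher and 6 lower with A1 + OVA (median 0.054). In that comparison 29.7% of all tested genes were higher and 27.9% lower. For osteogenic genes 8 of 17 were lower than with A1, Spp1 (-0.53) and Dmp1 (-0.74) among them, and the metallothioneins Mt1 (0.49) and Mt2 (0.65), which bind zinc, were higher. The median difference was -0.018 for the cholesterol synthesis genes and 0.072 for the actin genes, of which 5 were higher and 2 lower.

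**Figure D5:**
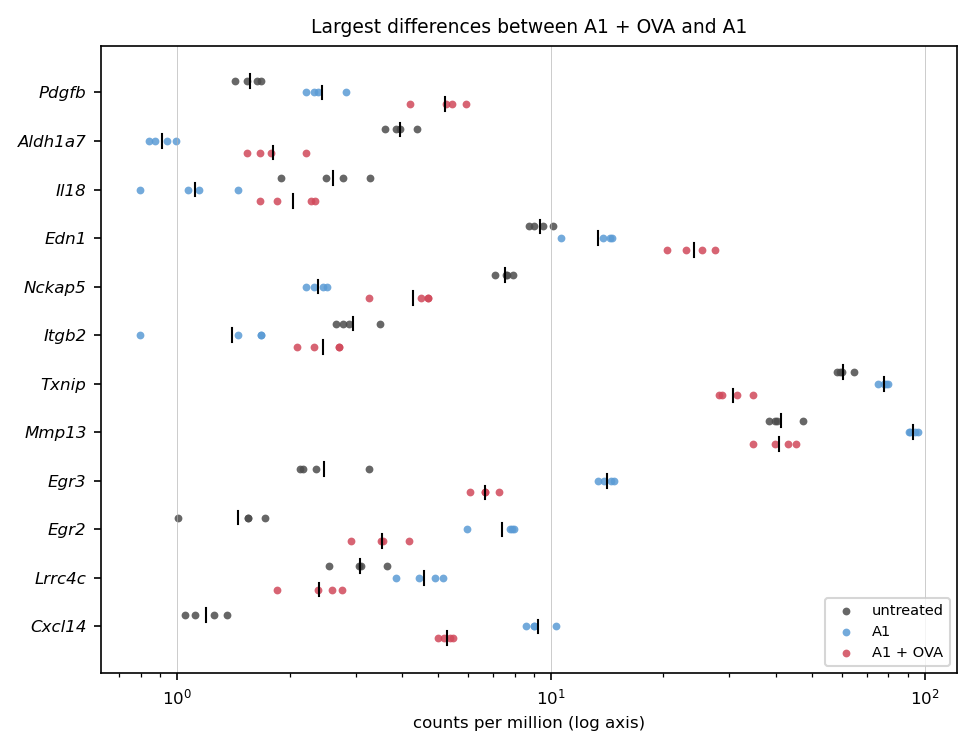
Expression in CPM (log axis) of the 12 genes with the largest differences between A1 + OVA and A1, among called genes without overlap whose log2 CPM averaged 1 or more, in the 4 untreated, 4 A1-treated and 4 A1 + OVA-treated samples, with a point per sample and a bar at the group mean. For Txnip the A1-treated samples lie above and the A1 + OVA-treated samples below the untreated ones, and for Mmp13 the A1 + OVA-treated samples lie among the untreated ones.

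Genes that do not code for proteins were tested in a second fit of all genes, in which 1202 of them passed the filter on low counts, of which 145 (12.1%) were higher and 158 (13.1%) lower with A1 + OVA. They included 307 processed pseudogenes, 202 long intergenic RNAs and 192 antisense RNAs. Gm44275, a long intergenic RNA (ENSMUSG00000107768, chr6:135312155-135319561), had 0.730, 1.28, 1.04 and 1.60 CPM in untreated and 6.505, 7.01, 6.11 and 6.26 CPM in treated samples (a log2 fold change of 2.47, SE 0.17, adjusted p = 1.27e-10). Gm15270 (ENSMUSG00000087400, chr10:24549441-24597108) had 1.52, 1.40, 0.426 and 1.30 CPM and 5.87, 5.27, 7.204 and 8.85 CPM (a log2 fold change of 2.54, SE 0.23, adjusted p = 7.15e-09). Both were higher in every treated sample, and the interval of Gm15270 overlaps that of Ccn2, which lies on the opposite strand. The next were Gm49774 (1.85), Gm29233 (1.70) and Gm29686 (1.61). The long intergenic RNA A330074K22Rik (ENSMUSG00000097960, chr8:120204434-120228230) had 9.19, 10.2, 9.07 and 8.20 CPM in untreated and 3.54, 3.47, 3.60 and 4.21 CPM in treated samples (a log2 fold change of -1.30, SE 0.12, adjusted p = 8.99e-09), and Gm43719 (-1.57), Gm26737 (-1.26), Gm43682 (-1.09) and Gm20300 (-1.07) also fell.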

How the data were processed

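The deposited values are raw counts per Ensembl gene, which the authors made with STAR 2.7 and featureCounts 2.0 on GRCm38 from poly(A)-selected, strand-specific libraries, with the strand used in counting. The sources differ on the library kit (KAPA RNA HyperPrep in the labels, a KAPA stranded mRNA kit in the methods) and on RNA isolation (TRIzol with a column in the labels, the column kit alone in the methods). All 12 samples were mapped from their titles. Of 55487 genes, 21974 were protein-coding, and 11314 of them passed edgeR's filterByExpr. TMM scaling and edgeR 4.0.16 (R 4.3.3) quasi-likelihood tests were applied in 1 fit with 3 groups, with Benjamini-Hochberg adjustment over all tested genes. Non-coding genes were tested in a fit of all genes. Gene names, types and exon lengths came from the GRCm38 reference annotation, and promoters from RefSeq (GRCm38.p6). Pathways were Reactome sets, described by counts and medians only. Fits were tested on simulated data. DESeq2 1.42.0, scaling, filters, fold thresholds, a replicate block and leaving out each sample were tried as alternatives. Exact intervals cover counting error only.

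Genes were named by rule: the 12 largest increases and decreases, the 8 largest gains and losses of length-scaled level, up to 3 changes per list and direction with the members that define the list, 6 genes per direction against A1 and 5 non-coding genes per direction. Other list members were named after their values were seen. The experiment, the gene lists and the motif and list pairs were chosen with earlier results of these data known, and so were the promoters shown, of which those of the AP-1 and TFEB elements were left out. Some genes are not reported here.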

Additional observations from a re-analysis of the deposited data

Results flagged for a closer look

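In each group of 4 samples, the gap between the highest or lowest sample and its neighbour was compared with the range of the group (Dixon's test at the 95% level) for the genes named above. Of 490 groups, 19 (3.88%) held such a sample, and chance gives about 1 in 20 groups. The 19 values fell on 7 of the 8 libraries, with 5 in replicate 1 and 4 in replicate 2 of the untreated group and 1 to 3 in each of the others. Among A1 + OVA-treated samples, the highest value stood apart for Ccn2 in replicate 3 (1676 CPM against 1529 to 1552), Id4 in replicate 1 (4.42 CPM against 3.67 to 3.70), Myc in replicate 3 (137 CPM against 127 in the others), Ppp1r3c in replicate 4 (2.59 CPM against 1.85 to 1.96) and Prss46 in replicate 1 (4.78 CPM against 4.16 to 4.24). The highest A1 + OVA-treated value also stood apart for Psmb9 in replicate 4 (0.801 CPM against 0.380 to 0.435). Among untreated samples, the highest value stood apart for Cyp51 in replicate 2 (594 CPM against 548 to 552), Dusp6 in replicate 2 (10.6 CPM against 9.22 to 9.41), Enpp1 in replicate 4 (20.8 CPM against 18.6 to 18.9), Fzd1 in replicate 1 (120.5 CPM against 110.3 to 111) and Gm29686 in replicate 4 (3.64 CPM against 2.80 to 2.86). The highest untreated value also stood apart for Sesn3 in replicate 2 (94.6 CPM against 89.5 to 89.7), Spry1 in replicate 1 (11.3 CPM against 9.91 to 10.1) and Tmem171 in replicate 2 (2.54 CPM against 1.94 to 2.04). Among untreated samples, the lowest value stood apart for Ddit3 in replicate 1 (24.1 CPM against 27.01 to 27.6), Slc38a2 in replicate 1 (644 CPM against 716 to 728) and Vcl in replicate 1 (398 CPM against 446 to 454). Among A1 + OVA-treated samples, the lowest value stood apart for Id3 in replicate 2 (35.8 CPM against 39.1 to 39.7) and Nckap5 in replicate 1 (3.26 CPM against 4.50 to 4.69). The cause of these values was not tested.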

How the results depend on the processing

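The counts of the response to A1 + OVA moved by less than 1.5 times under DESeq2, upper-quartile scaling, both filters on low counts, the inclusion of all genes, and a fit of the compared groups alone. Upper-quartile scaling put 46.8% of the calls higher, against 51.5%. A stricter fold threshold changed the number of DEGs by its construction. At a log2 fold change of 1 there were 302 higher and 288 lower against untreated cells and 9 and 7 against A1, and edgeR's test against a log2 fold change of 0.5 gave 619 and 512 against untreated cells and 0 and 3 against A1. When each of the 12 samples was left out, 3147 to 3350 genes were higher and 2948 to 3320 lower than in untreated cells, with 982 to 1034 and 971 to 1068 DEGs. Against A1 the ranges were 456 to 771 higher and 497 to 848 lower, with 58 to 105 and 38 to 50 DEGs, and the cause of the lowest counts was not tested. For non-coding genes they were 133 to 166 and 123 to 168.

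Same-numbered samples of the untreated and A1 + OVA groups had a mean correlation of deviations of 0.079 (0.022 to 0.126), against -0.026 between different numbers, and since not every pair exceeded 0.1 the numbers were not taken to pair the samples. With a replicate block, 3379 genes were higher and 3201 lower, 1016 and 992 of them DEGs, and 724 and 764 differed from A1, with 85 and 47 DEGs. For non-coding genes the block gave 149 and 155.

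No named gene reversed its direction in a call under any of these settings. Genes near the threshold changed sides, among them H2-D1, which passed the test under upper-quartile scaling (H2-D1 -0.12), Pparg (-0.12 under the same scaling), and Psmb9, which lost its call under DESeq2, without the filter on low counts and with the replicate block. Of 1349 list medians recomputed, 97, in 37 lists, moved by more than the spread between replicates, by 0.04 in the median and at most 0.63. They were 13 under upper-quartile scaling, 16 without the filter on low counts, 8 with at least 10 counts in every sample, 58 when a sample was left out, 1 with all genes and 1 with the compared groups alone. The medians of 11 lists changed sign under at least 1 setting: chemokines, cytokines, IL-12 signalling, metalloproteinases, TGF-beta, VEGF family, vacuolar ATPase, endocytic receptors, glycogen metabolism, and the markers of hematopoietic cells (3 tested) and of adipocytes, osteocytes and chondrocytes (6 tested). Genes under 1 CPM rest on few reads in these libraries.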
